A study of Mus musculus with 24 samples.

Results

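The genes C1qa, C1qb, C1qc, Cd163, Vsig4, Cd5l, Siglec1, Mertk, Axl and Adgre1 form a set of 10 that mark tissue macrophages or serve in efferocytosis, the removal of dying cells by phagocytes. They were found by gene name among the non-control probes of a mouse expression array, as 12 probes of 55681 and as 10 of the 29530 genes and other features that were tested. The files use the listed name for 9 of the 10 and give Adgre1 under its older name Emr1, matched here through its transcript accession. Siglec1 and Adgre1 have 2 probes each, and the probe with the highest mean over all arrays stands for the gene. The measurements are 24 one-colour arrays of spleen RNA from mice that received total body irradiation 24 hours earlier, or from resting mice. The groups were B10.BR mice at 0, 300, 500 and 900 cGy and BALB.K mice at 0, 300, 400 and 800 cGy, with 3 arrays in each of the 8 groups, and each array was hybridised with RNA pooled from 3 mice. The highest dose of each strain is called myeloablative in the study's design, meaning that it ablates the bone marrow. The strains are inbred mouse lines, and neither age nor sex is given in the sources used here. RNA came from homogenised splenocytes in bulk, in which a fall in the number of cells of a type and a fall in RNA per cell cannot be told apart.

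Cells that die by apoptosis expose phosphatidylserine and other signals on their surface, and tissue macrophages recognise these either directly or through soluble bridging proteins. C1q, built of the chains encoded by C1qa, C1qb and C1qc, starts the classical complement pathway and also binds dying cells, and macrophages are a main source of it. Axl and Mertk are receptor tyrosine kinases of the TAM family, which bind dying cells through the ligands Gas6 and protein S. In the spleen, F4/80 (the product of Adgre1) and CD163 are known from red pulp macrophages, which clear old red cells, and sialoadhesin (CD169, the product of Siglec1) is known from the metallophilic macrophages of the marginal zone.

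All 12 probes passed the filter on dim probes, and 11 of them were well above background on all 24 arrays. The exception was the second Siglec1 probe, which was well above background on 20 arrays. None was saturated. Each array detected 66.9% to 77% of its probes above background. The Y-linked gene Ddx3y was well above background on 1 of 3 BALB.K arrays at 0, at 300 and at 400 cGy, on all 3 at 800 cGy and on all 12 B10.BR arrays. A term for this signal in the fit could therefore move a change against 0 cGy only at 800 cGy in BALB.K. With the term all 10 genes still rose at that dose. A level is given as a multiple of the 75th percentile of the same array (830.3 to 1235 intensity units), and no gene's level is set against another gene's, since probes differ in how strongly they bind. The summed levels of gene lists further below add such levels, so that genes with bright probes weigh most in them. Changes are log2 differences ± the standard error of the limma fit over all 24 arrays, with 3 arrays against 3, and p-values are adjusted over all 29530 features. A gene is said to rise or fall where the adjusted p is below 0.05.

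After irradiation all 10 genes rose at every dose in both strains. In B10.BR the median log2 change of the 10 was 1.31 at 300 cGy, 1.64 at 500 cGy and 2.04 at 900 cGy, and single genes lay between 0.80 and 3.04. In BALB.K the median was 1.33 at 300 cGy, 1.82 at 400 cGy and 2.15 at 800 cGy, and single genes lay between 0.86 and 3.23. For each gene and dose the 3 irradiated arrays lay above the 3 unirradiated arrays of the strain. The share of all features whose arrays lay apart in this way is not given here, so the separation is a description only. The 3 doses of a strain share the same unirradiated arrays.

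These counts stand against a background of widespread change. In B10.BR, 18.8% of all features were higher and 22.7% lower at 300 cGy, 22.1% higher and 26.6% lower at 500 cGy, and 25.8% higher and 28.4% lower at 900 cGy. In BALB.K, 20.8% were higher and 25.9% lower at 300 cGy, 25.5% higher and 25.9% lower at 400 cGy, and 29.2% higher and 29.1% lower at 800 cGy. The median change of all features lay between -0.12 and 0.08 in the 6 comparisons. Of the features called, 45.3%, 45.4% and 47.6% were higher at 300, 500 and 900 cGy in B10.BR, against 83.4%, 80.6% and 76.8% with spike-in scaling. In BALB.K 49.6% at 400 and 50.1% at 800 cGy became 60.1% and 76.9% with spike-in scaling, and 44.5% at 300 cGy became 61.7% with median scaling. Spike-in scaling moved the median of all features by -0.06 to 0.37. All 60 changes of the 10 genes lay above the median of all features, the closest by 0.85. Median and spike-in scaling shift all features of an array alike and cannot alter this. With quantile normalization, which can, all 60 also lay above the median, the closest by 0.80.

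**Figure D1:**
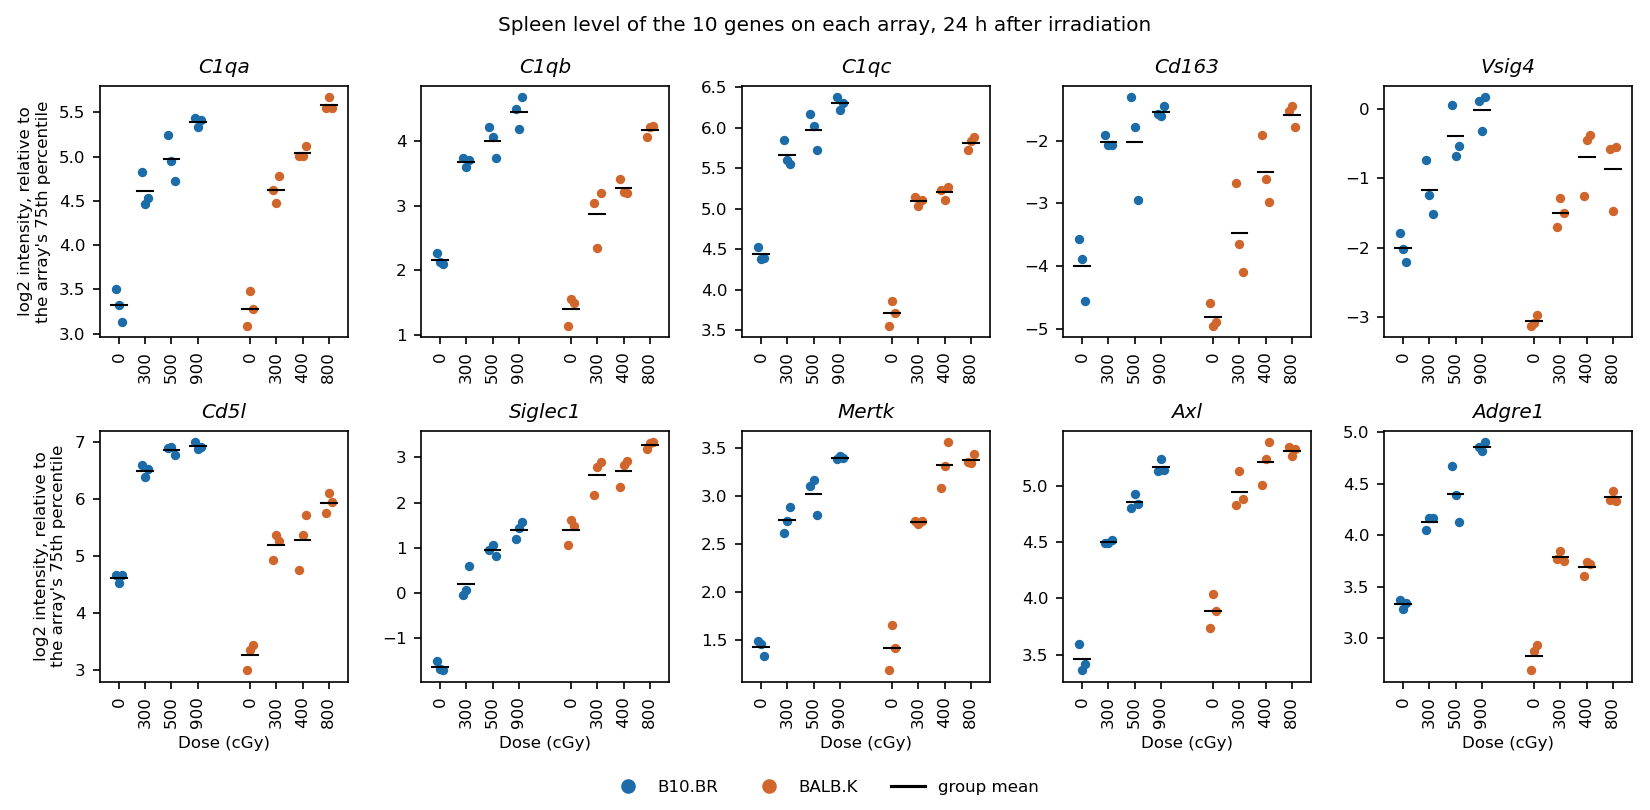
Each panel is 1 gene. Points are single arrays (RNA of 3 pooled mice each), black lines are means of 3 arrays, the x axis gives the dose in cGy with B10.BR (blue) left of BALB.K (orange), and the y axis gives the log2 intensity relative to the array's 75th percentile. In every panel all irradiated arrays of a strain lie above its unirradiated arrays, and Siglec1 sits lower in B10.BR than in BALB.K.

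**Figure D2:**
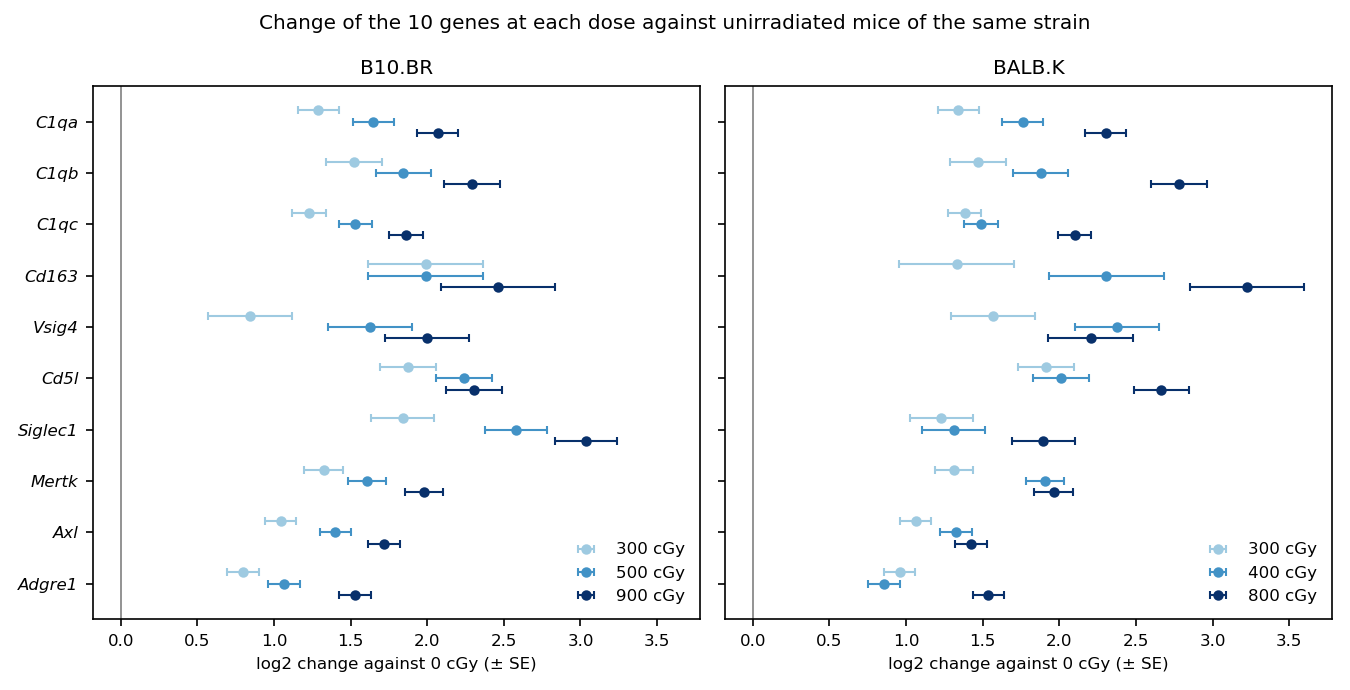
Points are log2 changes against 0 cGy of the same strain and bars are ± 1 standard error of the limma fit (3 arrays against 3), with B10.BR left, BALB.K right and darker points for higher doses. All 60 points lie right of 0, from 0.80 for Adgre1 at 300 cGy in B10.BR to 3.23 for Cd163 at 800 cGy in BALB.K.

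The 3 chains of C1q are encoded side by side. Their probes lie on chromosome 4, minus strand, build mm9, at chr4:136436578-136436637 for C1qb, chr4:136445766-136445825 for C1qc and chr4:136452409-136452468 for C1qa. The probe sequences of C1qa and C1qb are shown as the files give them, because they are the stretches of transcript on which these measurements rest. The probe of C1qc is printed 10 times on each array and its level is the mean of those spots, 14 single readings having been left out because the scanner software marked them as outliers.
C1qa: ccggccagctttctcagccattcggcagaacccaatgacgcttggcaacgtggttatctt
C1qb: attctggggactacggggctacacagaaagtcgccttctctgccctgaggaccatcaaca

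For C1qa the B10.BR arrays read 11.3, 10 and 8.79 at 0 cGy, 28.4, 22.1 and 23.2 at 300 cGy, 37.8, 31 and 26.4 at 500 cGy, and 43.1, 40.4 and 42.4 at 900 cGy. BALB.K arrays gave C1qa levels of 8.53, 11.2 and 9.69 at 0 cGy, 24.6, 22.2 and 27.5 at 300 cGy, 32.1, 32.2 and 34.7 at 400 cGy, and 46.7, 50.8 and 46.7 at 800 cGy. The strains started at about the same level, and their ranges at 0 cGy overlapped. The log2 change was 2.07 ± 0.13 (adjusted p = 3.22e-10) at 900 cGy in B10.BR and 2.30 ± 0.13 (adjusted p = 5.88e-11) at 800 cGy in BALB.K.

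For C1qb the B10.BR arrays read 4.82, 4.36 and 4.27 at 0 cGy, 13.4, 12.1 and 13.1 at 300 cGy, 18.6, 16.7 and 13.4 at 500 cGy, and 22.6, 18.3 and 25.6 at 900 cGy. BALB.K arrays gave C1qb levels of 2.2, 2.93 and 2.8 at 0 cGy, 8.24, 5.08 and 9.2 at 300 cGy, 10.6, 9.22 and 9.17 at 400 cGy, and 16.6, 18.7 and 18.9 at 800 cGy. One BALB.K array at 300 cGy stood lower than the other 2, and it still lay above all 3 arrays at 0 cGy. The change was 2.29 ± 0.18 (adjusted p = 4.27e-09) at 900 cGy in B10.BR and 2.78 ± 0.18 (adjusted p = 2.77e-10) at 800 cGy in BALB.K, a 4.9-fold rise in B10.BR and a 6.87-fold rise in BALB.K.

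For C1qc the B10.BR arrays read 23.2, 20.9 and 21 at 0 cGy, 57.4, 48.5 and 46.9 at 300 cGy, 71.8, 64.8 and 52.8 at 500 cGy, and 82.9, 74.3 and 79.3 at 900 cGy. BALB.K arrays gave C1qc levels of 11.8, 14.5 and 13.2 at 0 cGy, 35.5, 32.8 and 34.4 at 300 cGy, 37.5, 34.6 and 38.5 at 400 cGy, and 52.8, 57.1 and 59.1 at 800 cGy. At 0 cGy all 3 B10.BR arrays lay above all 3 BALB.K arrays. The change was 1.86 ± 0.11 (adjusted p = 8.69e-11) at 900 cGy in B10.BR and 2.10 ± 0.11 (adjusted p = 1.25e-11) at 800 cGy in BALB.K.

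The 3 chains moved close to each other at the lowest dose. At 300 cGy the changes of C1qa, C1qb and C1qc were 1.29 ± 0.13, 1.52 ± 0.18 and 1.23 ± 0.11 in B10.BR, and 1.34 ± 0.13, 1.47 ± 0.18 and 1.38 ± 0.11 in BALB.K. C1qb had the largest estimate of the 3 at each of the 6 doses, and whether it differed from the others was not tested.

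Because the C1q genes moved together, the 250 bases before the transcription start of C1qb and C1qc are shown, from RefSeq on build GRCm38.p6 (chr4:136886201-136886450 and chr4:136892915-136893164, both on the minus strand and written in the direction of the gene). RefSeq windows were at hand for 7 of the 10 genes, all but C1qa, Siglec1 and Adgre1. Capitals mark matches to GAGGAA, the core of sites bound by PU.1, a transcription factor of myeloid cells, on either strand (TTCCTC is the same motif on the other strand).
C1qb: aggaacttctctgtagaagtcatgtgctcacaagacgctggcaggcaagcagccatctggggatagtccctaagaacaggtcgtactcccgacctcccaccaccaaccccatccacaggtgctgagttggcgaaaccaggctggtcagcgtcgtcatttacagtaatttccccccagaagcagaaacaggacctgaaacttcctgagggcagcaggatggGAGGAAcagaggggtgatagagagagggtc
C1qc: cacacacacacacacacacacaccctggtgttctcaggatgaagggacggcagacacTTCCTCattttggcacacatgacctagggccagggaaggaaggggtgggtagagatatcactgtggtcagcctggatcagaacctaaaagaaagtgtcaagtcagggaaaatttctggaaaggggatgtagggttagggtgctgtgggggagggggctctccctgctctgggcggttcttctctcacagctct

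The match starts 30 bases before the start of transcription in C1qb and 193 bases before it, on the other strand, in C1qc. Of the 7 windows 5 held GAGGAA, those of C1qb, C1qc, Vsig4, Cd5l and Axl, Vsig4 having 2 matches. Of all 32851 windows of the same length, 23.3% held it. None of the 7 held GAAANNGAA, the core of interferon-stimulated response elements (7.13% of all windows). Both motifs were searched on both strands and none of the matches overlapped another. A match is a description of the sequence and does not show that a factor binds there.

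Cd163 encodes the scavenger receptor for haemoglobin bound to haptoglobin. Its probe (chr6:124270436-124270495, plus strand, mm9) was the one with the widest spread between replicates among the 10, with a standard error of 0.37. For Cd163 the B10.BR arrays read 0.0845, 0.0674 and 0.0427 at 0 cGy, 0.266, 0.238 and 0.24 at 300 cGy, 0.404, 0.291 and 0.13 at 500 cGy, and 0.337, 0.33 and 0.367 at 900 cGy. BALB.K arrays gave Cd163 levels of 0.0417, 0.0324 and 0.0338 at 0 cGy, 0.156, 0.0795 and 0.0584 at 300 cGy, 0.266, 0.163 and 0.128 at 400 cGy, and 0.347, 0.369 and 0.292 at 800 cGy. The 3 arrays at 500 cGy in B10.BR lay far apart, as did those at 300 cGy in BALB.K, while the arrays at the highest dose of each strain lay close together. The change was 2.46 ± 0.37 (adjusted p = 1.56e-05) at 900 cGy in B10.BR and 3.23 ± 0.37 (adjusted p = 5.27e-07) at 800 cGy in BALB.K. At 300 cGy in BALB.K it was 1.33 ± 0.37 (adjusted p = 0.00682), a call that was lost without the highest array (0.93, adjusted p = 0.0531) and with normexp background correction (0.60, adjusted p = 0.0515).

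Normexp correction gave smaller Cd163 changes at every dose, such as 1.69 at 900 cGy in B10.BR and 1.98 at 800 cGy in BALB.K. With the array slide as a term of the fit the Cd163 changes at the highest doses were larger, 3.87 at 900 cGy in B10.BR and 4.42 at 800 cGy in BALB.K. No slide held both 0 cGy and the highest dose of a strain. At 300 cGy in B10.BR all arrays compared lay on the same slide, so the term could not move the change.

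Vsig4 encodes CRIg, a macrophage receptor for fragments of complement C3 (probe at chrX:93442598-93442657, minus strand, mm9). For Vsig4 the B10.BR arrays read 0.29, 0.247 and 0.216 at 0 cGy, 0.602, 0.421 and 0.35 at 300 cGy, 1.04, 0.628 and 0.694 at 500 cGy, and 1.09, 0.806 and 1.13 at 900 cGy. BALB.K arrays gave Vsig4 levels of 0.114, 0.117 and 0.127 at 0 cGy, 0.306, 0.409 and 0.353 at 300 cGy, 0.421, 0.738 and 0.772 at 400 cGy, and 0.673, 0.361 and 0.687 at 800 cGy. Irradiated and unirradiated arrays were apart in both strains, whereas the irradiated dose groups overlapped in part. The change was 2.0 ± 0.27 (adjusted p = 4.79e-06) at 900 cGy in B10.BR and 2.20 ± 0.27 (adjusted p = 1.33e-06) at 800 cGy in BALB.K. At 300 cGy in B10.BR it was 0.84 ± 0.27 (adjusted p = 0.0191), and that call was lost when the lowest array at 0 cGy (adjusted p = 0.0756) or the highest at 300 cGy (adjusted p = 0.105) was left out.

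Cd5l encodes a protein, also called AIM, that macrophages secrete (probe at chr3:87174823-87174882, plus strand, mm9). For Cd5l the B10.BR arrays read 25.4, 23.1 and 25.6 at 0 cGy, 96.6, 83.5 and 92.1 at 300 cGy, 119, 121 and 110 at 500 cGy, and 128, 117 and 120 at 900 cGy. BALB.K arrays gave Cd5l levels of 8.03, 10.3 and 10.9 at 0 cGy, 30.5, 41.5 and 38.3 at 300 cGy, 26.9, 41.4 and 53.1 at 400 cGy, and 54.3, 69.3 and 61.5 at 800 cGy. At 0 and at 300 cGy all B10.BR arrays lay above all BALB.K arrays, and at 500 and 900 cGy the B10.BR arrays lay above every BALB.K array. At 300 cGy the change was already 1.88 ± 0.18 in B10.BR and 1.92 ± 0.18 in BALB.K. At the highest doses it was 2.31 ± 0.18 (adjusted p = 3.84e-09) in B10.BR and 2.67 ± 0.18 (adjusted p = 4.65e-10) in BALB.K.

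Mertk and Axl encode receptors of the TAM family (probes at chr2:128627867-128627926, plus strand, and chr7:26542541-26542600, minus strand, mm9). For Mertk the B10.BR arrays read 2.79, 2.74 and 2.52 at 0 cGy, 6.11, 6.69 and 7.38 at 300 cGy, 8.58, 9.02 and 7 at 500 cGy, and 10.4, 10.7 and 10.5 at 900 cGy. BALB.K arrays gave Mertk levels of 2.27, 3.15 and 2.67 at 0 cGy, 6.71, 6.55 and 6.69 at 300 cGy, 8.5, 9.97 and 11.8 at 400 cGy, and 10.3, 10.2 and 10.8 at 800 cGy. The unirradiated strains overlapped, and so did the arrays at the highest doses. The change of Mertk was 1.98 ± 0.12 (adjusted p = 2.25e-10) at 900 cGy in B10.BR and 1.96 ± 0.12 (adjusted p = 1.91e-10) at 800 cGy in BALB.K.

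For Axl the B10.BR arrays read 12.1, 10.3 and 10.7 at 0 cGy, 22.5, 22.5 and 22.9 at 300 cGy, 27.9, 30.5 and 28.6 at 500 cGy, and 35.2, 37.8 and 35.3 at 900 cGy. BALB.K arrays gave Axl levels of 13.3, 16.4 and 14.8 at 0 cGy, 28.4, 35.1 and 29.6 at 300 cGy, 32.1, 37.8 and 42 at 400 cGy, and 40.6, 38.6 and 40.1 at 800 cGy. At 0 and at 300 cGy all B10.BR arrays lay below all BALB.K arrays. The change was 1.72 ± 0.10 (adjusted p = 1.23e-10) at 900 cGy in B10.BR and 1.43 ± 0.10 (adjusted p = 1.1e-09) at 800 cGy in BALB.K.

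Siglec1 encodes sialoadhesin, which binds sialic acid on other cells. For Siglec1 the B10.BR arrays read 0.349, 0.31 and 0.304 at 0 cGy, 0.959, 1.05 and 1.51 at 300 cGy, 1.92, 2.08 and 1.76 at 500 cGy, and 2.28, 2.7 and 2.96 at 900 cGy (probe at chr2:130895093-130895152, minus strand, mm9). BALB.K arrays gave Siglec1 levels of 2.09, 3.07 and 2.79 at 0 cGy, 4.47, 6.9 and 7.49 at 300 cGy, 5.05, 7.17 and 7.54 at 400 cGy, and 9.14, 9.98 and 10.1 at 800 cGy. At 900 cGy the B10.BR arrays had only reached the range of unirradiated BALB.K arrays. In B10.BR the change was 1.84 ± 0.20 (adjusted p = 9.98e-07) at 300 cGy, 2.58 ± 0.20 (adjusted p = 7.51e-09) at 500 cGy and 3.04 ± 0.20 (adjusted p = 4.72e-10) at 900 cGy, the last an 8.22-fold rise and the 124th largest of all 29530 features. In BALB.K it was 1.23 ± 0.20 (adjusted p = 6.79e-05) at 300 cGy, 1.31 ± 0.20 (adjusted p = 2.62e-05) at 400 cGy and 1.90 ± 0.20 (adjusted p = 2.01e-07) at 800 cGy.

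The arrays lay on 3 slides of 8. One slide held the BALB.K arrays at 0 cGy and 1 of the 3 at 300 cGy, and that array was the one with Y-linked signal, the lowest of its group for Siglec1 and the highest for Cd163. Siglec1 differed by 0.77 between that array and those at 0 cGy (adjusted p = 0.0843), a comparison with 1 array in an arm whose spread is taken from the other groups. With slide as a term of the fit the Siglec1 change in BALB.K was 0.62 at 400 cGy (adjusted p = 0.142) and 1.21 at 800 cGy (adjusted p = 0.00635). The slides of BALB.K are linked by that array alone, so that the slide and the array cannot be told apart. No slide held both 0 cGy and 400 or 800 cGy arrays of BALB.K, or both 0 and 900 cGy arrays of B10.BR.

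The second Siglec1 probe reads another part of the transcript, at chr2:130909693-130909752, minus strand (mm9), and is shown because it bears on the difference between the strains.
Siglec1, second probe: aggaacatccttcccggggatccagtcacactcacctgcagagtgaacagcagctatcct

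In B10.BR at 0 cGy this probe was not well above background on any array. For this second Siglec1 probe the B10.BR arrays read 0.00824, 0.0102 and 0.00432 at 0 cGy, 0.0112, 0.0194 and 0.0243 at 300 cGy, 0.0188, 0.0159 and 0.019 at 500 cGy, and 0.0238, 0.0302 and 0.037 at 900 cGy. BALB.K arrays gave levels of 0.016, 0.0289 and 0.0243 at 0 cGy, 0.0215, 0.0411 and 0.0311 at 300 cGy, 0.0537, 0.0429 and 0.0443 at 400 cGy, and 0.0491, 0.053 and 0.0748 at 800 cGy for it. In B10.BR it was at least 2.59-fold higher at 900 cGy than at 0 cGy (adjusted p = 2.92e-05), at least 1.54-fold higher at 500 cGy (adjusted p = 0.00261) and at least 1.51-fold higher at 300 cGy (adjusted p = 0.00418, with 2 of 3 arrays above background). Each bound sets the mean of the brighter group against the higher, on each array of the dimmer group, of the probe's own signal and the lowest signal that was well above background. The adjusted p-values are not those of the bounds. They come from the limma fit over all probes, which took the dim signals as measured. In BALB.K its change was 1.37 ± 0.33 (adjusted p = 0.0015) at 800 cGy and 1.06 ± 0.33 (adjusted p = 0.0118) at 400 cGy, and at 300 cGy, where the arrays overlapped with those at 0 cGy, it was 0.43 ± 0.33 (adjusted p = 0.312).

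Adgre1 encodes F4/80, an adhesion receptor used as a marker of mouse macrophages. For Adgre1 the B10.BR arrays read 10.4, 9.71 and 10.1 at 0 cGy, 16.6, 18 and 18 at 300 cGy, 25.4, 21 and 17.5 at 500 cGy, and 29, 28.2 and 30 at 900 cGy (probe at chr17:57622868-57622927, plus strand, mm9). BALB.K arrays gave Adgre1 levels of 6.46, 7.32 and 7.64 at 0 cGy, 13.7, 14.4 and 13.4 at 300 cGy, 12.2, 13.4 and 13.2 at 400 cGy, and 20.3, 21.6 and 20.2 at 800 cGy. At 300 and 400 cGy in BALB.K it was 12.2 to 14.4 times the 75th percentile, with the groups overlapping, and at 800 cGy all 3 arrays lay above that range. The change was 1.53 ± 0.10 (adjusted p = 4.68e-10) at 900 cGy in B10.BR and 1.54 ± 0.10 (adjusted p = 3.53e-10) at 800 cGy in BALB.K. Its second probe (chr17:57620350-57620409, plus strand) gave 1.74 ± 0.14 (adjusted p = 6.84e-09) at 900 cGy in B10.BR and 1.94 ± 0.14 (adjusted p = 1.41e-09) at 800 cGy in BALB.K. At 400 cGy in BALB.K the probes differed in size, 0.86 ± 0.10 by the first and 1.41 ± 0.14 by the second.

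Neighbouring doses differed less. In B10.BR at 500 against 300 cGy none of the 10 passed. All 10 estimates were above 0, with a median of 0.34 against 0.006 for all features. The share of all features with an estimate above 0 is not given here, so this is a description only. In that comparison 0.654% of all features were higher and 0.928% lower. The closest to the threshold was Siglec1 at 0.74 ± 0.20 (adjusted p = 0.074), with the 3 arrays at 500 cGy above the 3 at 300 cGy. The other estimates were 0.78 ± 0.27 for Vsig4, 0.36 ± 0.18 for Cd5l, 0.36 ± 0.13 for C1qa, 0.36 ± 0.10 for Axl, 0.33 ± 0.18 for C1qb, 0.30 ± 0.11 for C1qc, 0.28 ± 0.12 for Mertk, 0.27 ± 0.10 for Adgre1 and 0.00 ± 0.37 for Cd163. At 900 against 500 cGy in B10.BR 1 of the 10 rose, Adgre1 at 0.46 ± 0.10 (adjusted p = 0.0133), with 1.3% of all features higher and 3.26% lower. That call was lost without the lowest array at 500 cGy (0.33, adjusted p = 0.0656) and without 1 array at 900 cGy (0.44, adjusted p = 0.0656). All 10 estimates were again above 0, with a median of 0.40 against 0.03 for all features. Those of the other 9 were 0.47 ± 0.37 for Cd163, 0.46 ± 0.20 for Siglec1, 0.45 ± 0.18 for C1qb, 0.42 ± 0.13 for C1qa, 0.38 ± 0.27 for Vsig4, 0.37 ± 0.12 for Mertk, 0.33 ± 0.11 for C1qc, 0.31 ± 0.10 for Axl and 0.07 ± 0.18 for Cd5l. Median scaling turned the share of called features that were higher to 56.7% at 500 against 300 cGy, from 41.3%, and to 10.8% at 900 against 500 cGy, from 28.5%.

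In BALB.K at 400 against 300 cGy 1 of the 10 rose, Mertk at 0.59 ± 0.12 (adjusted p = 0.0162), with 3.06% of all features higher and 1.61% lower. The Mertk call was lost without replicate 2 (adjusted p = 0.0604) or 3 (adjusted p = 0.0609) at 300 cGy. It was also lost without replicate 2 (adjusted p = 0.059) or 3 (adjusted p = 0.0831) at 400 cGy. The other estimates were 0.98 ± 0.37 for Cd163, 0.81 ± 0.27 for Vsig4, 0.42 ± 0.13 for C1qa, 0.41 ± 0.18 for C1qb, 0.26 ± 0.10 for Axl, 0.11 ± 0.11 for C1qc, 0.10 ± 0.18 for Cd5l, 0.08 ± 0.20 for Siglec1 and -0.10 ± 0.10 for Adgre1. At 800 against 400 cGy 5 of the 10 rose, with 8.65% of all features higher and 9.92% lower. These were C1qb (0.90 ± 0.18, adjusted p = 0.00223), Adgre1 (0.68 ± 0.10, adjusted p = 0.000219), Cd5l (0.66 ± 0.18, adjusted p = 0.0173), C1qc (0.61 ± 0.11, adjusted p = 0.000889) and C1qa (0.54 ± 0.13, adjusted p = 0.00919). For Cd5l the call was lost without the lowest array at 400 cGy (0.39, adjusted p = 0.0901) or the highest at 800 cGy (0.57, adjusted p = 0.0839). Mertk, with 0.06 ± 0.12 and a 95% interval of -0.21 to 0.32, Axl, with 0.10 ± 0.10 and -0.12 to 0.32, and Vsig4, with -0.17 ± 0.27 and -0.75 to 0.40, did not pass in that comparison. Siglec1 (0.59 ± 0.20, adjusted p = 0.0524) and Cd163 (0.92 ± 0.37, adjusted p = 0.0961) did not pass either, although their 3 arrays at 800 cGy lay above the 3 at 400 cGy. Of the features called at 400 against 300 cGy 65.5% were higher, against 47.4% with quantile normalization, 11.5% with median scaling and 97.8% with spike-in scaling, and at 800 against 400 cGy 46.6% were higher, against 36.1% with median scaling and 92.5% with spike-in scaling.

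Without irradiation the strains differed in 7 of the 10 genes. Cd5l (1.35 ± 0.18, adjusted p = 7.74e-06), Vsig4 (1.06 ± 0.27, adjusted p = 0.00353), C1qb (0.77 ± 0.18, adjusted p = 0.00175), C1qc (0.72 ± 0.11, adjusted p = 2.81e-05) and Adgre1 (0.50 ± 0.10, adjusted p = 0.000542) were higher in B10.BR than in BALB.K. Siglec1 (-3.03 ± 0.20, adjusted p = 1.37e-09) and Axl (-0.43 ± 0.10, adjusted p = 0.00196) were lower in B10.BR. Among all features 22.7% were higher in B10.BR and 30.6% lower. C1qa, at 0.04 ± 0.13 with a 95% interval of -0.24 to 0.32, Mertk, at 0.00 ± 0.12 with -0.26 to 0.27, and Cd163, at 0.81 ± 0.37 with 0.02 to 1.59, did not pass.

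Of the features called 42.5% were higher in B10.BR, against 5.41% with spike-in scaling and 69.2% with median scaling. Spike-in scaling moved the median of all features to -0.82, against -0.10 with the percentile scaling, and since it shifts all genes alike, Cd5l (0.63, adjusted p = 0.0195) was the gene of the 10 that was then called higher in B10.BR. The percentile, median and spike-in scalings shift all genes of an array alike, so differences relative to the median of all features are the same under each. These relative differences were 1.45 for Cd5l, 1.16 for Vsig4, 0.90 for Cd163, 0.87 for C1qb, 0.82 for C1qc, 0.60 for Adgre1, 0.14 for C1qa, 0.10 for Mertk, -0.33 for Axl and -2.93 for Siglec1. With quantile normalization they were 1.30 for Vsig4, 1.22 for Cd5l, 1.13 for Cd163, 0.70 for C1qb, 0.62 for C1qc and 0.44 for Adgre1. Under it C1qa was at -0.02, Mertk at -0.03, Axl at -0.47 and Siglec1 at -2.94. No slide held unirradiated arrays of both strains, and with slide as a term only Cd5l (1.23, adjusted p = 0.0146) and Siglec1 (-3.21, adjusted p = 4.93e-06) passed, in a fit whose slides are linked by 1 array of each strain. Siglec1 was 0.304 to 0.349 times the 75th percentile in B10.BR and 2.09 to 3.07 times it in BALB.K at 0 cGy, an 8.16-fold difference. On the log2 scale this difference of -3.03 was -2.34 with the mean of the gene's 2 probes and -3.75 with spike-in scaling. The second Siglec1 probe was at least 1.94-fold lower in B10.BR (adjusted p = 0.000442, from the fit that took its dim signals as measured). Whether the probes match the sequence of both strains was not tested.

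The size of the response was compared between the strains as the B10.BR change minus the BALB.K change. At 300 cGy, the dose that both strains received, none of the 10 passed, with 6.04% of all features higher and 4.77% lower. Of those called 55.9% were higher, against 21.9% with median scaling and 96.4% with spike-in scaling. The difference was 0.01 ± 0.18 for Mertk, with a 95% interval of -0.36 to 0.38, and -0.02 ± 0.15 for Axl, with -0.33 to 0.29. It was less closely bounded for Vsig4 (-0.72 ± 0.39, interval -1.54 to 0.09) and for Cd163 (0.66 ± 0.53, interval -0.45 to 1.77). The other differences were 0.61 ± 0.29 for Siglec1, 0.05 ± 0.26 for C1qb, -0.04 ± 0.26 for Cd5l, -0.05 ± 0.19 for C1qa, -0.15 ± 0.15 for C1qc and -0.16 ± 0.14 for Adgre1.

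At the highest doses, which are not equal, the B10.BR change at 900 cGy was set against the BALB.K change at 800 cGy. Siglec1 alone passed, with a larger change in B10.BR by 1.14 ± 0.29 (adjusted p = 0.014), while 6.8% of all features had a larger and 5.92% a smaller change in B10.BR. By its second probe the difference was 0.69 ± 0.46 (adjusted p = 0.375), in a fit that took its dim B10.BR signals at 0 cGy as measured. The call was also lost with spike-in scaling (1.13, adjusted p = 0.189) and with the mean of the gene's 2 probes (0.92, adjusted p = 0.0834). Mertk again lay near 0, at 0.02 ± 0.18 with an interval of -0.35 to 0.39, and so did Adgre1, at -0.01 ± 0.14 with -0.31 to 0.29. The other differences were 0.29 ± 0.15 for Axl, -0.20 ± 0.39 for Vsig4, -0.23 ± 0.19 for C1qa, -0.24 ± 0.15 for C1qc, -0.36 ± 0.26 for Cd5l, -0.49 ± 0.26 for C1qb and -0.76 ± 0.53 for Cd163.

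**Figure D3:**
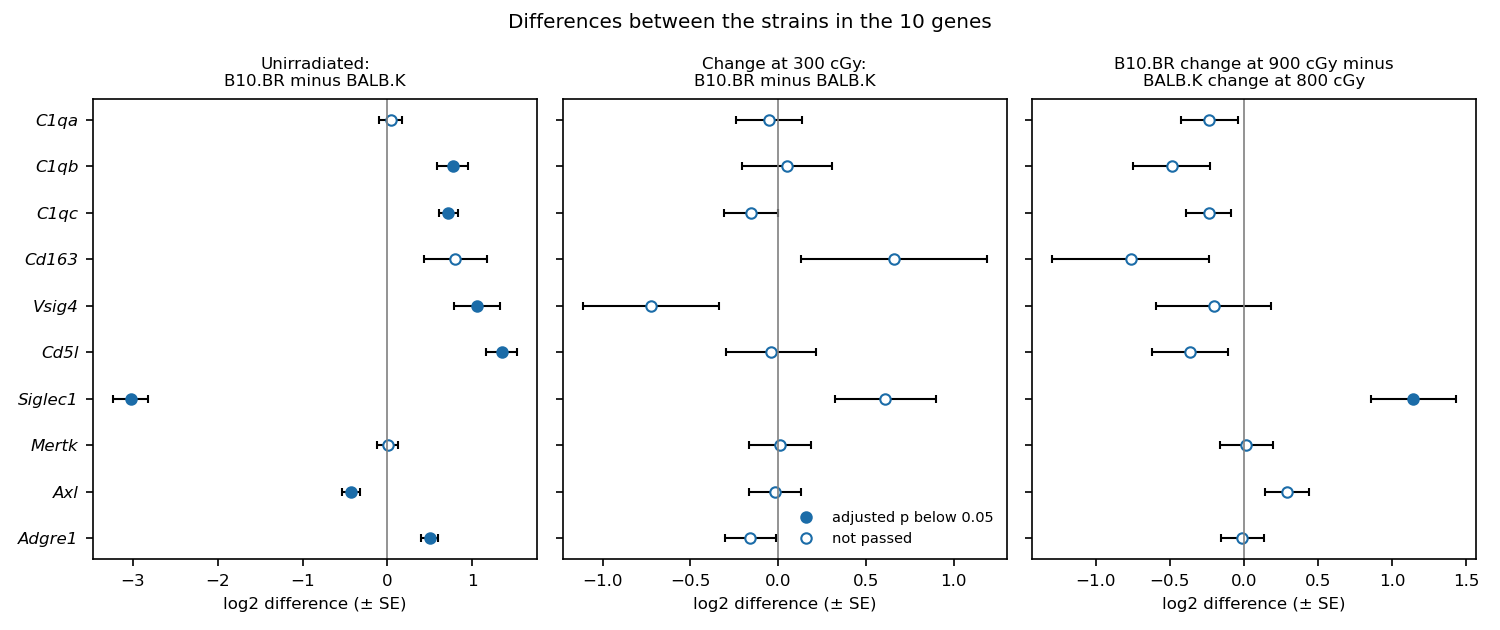
Log2 differences between the strains (± 1 standard error of the limma fit) for the unirradiated spleens (left), for the change at 300 cGy (middle) and for the change at 900 cGy in B10.BR minus that at 800 cGy in BALB.K (right). Filled points passed at an adjusted p below 0.05. Siglec1 lies at -3.03 on the left and at 1.14 on the right.

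Other genes of the same pathway were followed in lists. Of 6 bridging ligands, which link phosphatidylserine to receptors, 5 rose and none fell in B10.BR at 900 cGy, and 6 rose in BALB.K at 800 cGy, with median changes of 1.44 in B10.BR and 1.67 in BALB.K. Gas6, the ligand of Axl and Mertk, changed by 2.06 ± 0.12 in B10.BR and 2.17 ± 0.12 in BALB.K. Pros1, which encodes protein S, changed by 1.93 ± 0.13 in B10.BR, and Thbs1, which encodes thrombospondin, by 1.98 ± 0.20 in BALB.K.

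Of 13 further uptake receptors 11 rose and none fell at the highest dose of each strain, with medians of 1.58 in B10.BR and 1.19 in BALB.K. Lrp1, a receptor that binds calreticulin on dying cells, changed by 2.33 ± 0.14 in B10.BR and 2.31 ± 0.14 in BALB.K, and Stab1, a scavenger receptor, by 1.95 ± 0.09 in BALB.K. The dim probe of Scarf1, a scavenger receptor, changed by 2.13 ± 0.69 in B10.BR. It was well above background on 2 of 3 arrays there at 0 cGy.

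Of 8 genes of the engulfment machinery 4 rose, 2 fell and 2 did not pass in B10.BR at 900 cGy, where 28.4% of all features were lower, and 5 rose, 2 fell and 1 did not pass in BALB.K at 800 cGy, where 29.1% were lower. Dock1, an activator of Rac, rose by 1.33 ± 0.09 in B10.BR and 1.41 ± 0.09 in BALB.K, and Abca1, a cholesterol exporter, by 0.98 ± 0.09 in B10.BR and 1.02 ± 0.09 in BALB.K. Elmo1, the partner of Dock proteins, changed by -0.40 ± 0.13 in B10.BR and -0.31 ± 0.13 in BALB.K, and Abca7, another lipid transporter, by -0.85 ± 0.10 in B10.BR and -0.58 ± 0.10 in BALB.K.

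Among the 4 genes of inhibitory signals, Sirpa, the macrophage receptor for CD47, rose by 1.08 ± 0.11 in B10.BR and 0.98 ± 0.11 in BALB.K. Cd24a, which B cells and erythroid precursors also carry, changed by -3.35 ± 0.10 in B10.BR and -4.15 ± 0.10 in BALB.K, and Siglecg, a receptor of B cells, by -2.19 ± 0.23 in B10.BR and -2.78 ± 0.23 in BALB.K. In all, 1 of the 4 rose and 2 fell at 900 cGy in B10.BR, and 1 rose and 3 fell at 800 cGy in BALB.K.

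Of 13 other genes of the classical complement pathway and its regulators 9 rose and 2 fell at the highest dose of each strain, with medians of 1.39 in B10.BR and 1.10 in BALB.K. C2, a protease precursor that C1 cleaves, rose by 1.98 ± 0.10 in B10.BR and 1.95 ± 0.10 in BALB.K. C4b rose by 1.78 ± 0.10 in B10.BR, and Serping1, which encodes the inhibitor of C1, by 1.88 ± 0.11 in BALB.K. Cr2, the complement receptor of B cells, fell by 3.00 and 2.95 on the log2 scale in B10.BR and BALB.K, and Cr1l changed by -0.30 ± 0.09 in B10.BR and -0.43 ± 0.09 in BALB.K.

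Of 11 genes of lipid handling and macrophage regulation 8 rose and 1 fell at 900 cGy in B10.BR, and 9 rose and none fell at 800 cGy in BALB.K. Pparg, a lipid sensor, rose by 1.75 ± 0.14 in B10.BR, and Abcg1, a cholesterol transporter, by 1.42 ± 0.09 in BALB.K. Irf8, a factor of monocytes, dendritic cells and B cells, changed by -0.21 ± 0.08 in B10.BR.

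Markers of other cells moved in the same spleens. The summed level of the 10 genes was 81.7 to 90.7 at 0 cGy, 215 to 243 at 300 cGy, 258 to 312 at 500 cGy and 331 to 355 at 900 cGy in B10.BR, and 54.9 to 69 at 0 cGy, 153 to 167 at 300 cGy, 166 to 211 at 400 cGy and 252 to 277 at 800 cGy in BALB.K, as the lowest and highest of 3 arrays. Of 14 further markers of spleen macrophages 14 rose at 900 cGy in B10.BR and 12 rose at 800 cGy in BALB.K, and none fell. Their sum was 348 to 376 at 0 cGy, 739 to 814 at 300 cGy, 787 to 945 at 500 cGy and 1020 to 1120 at 900 cGy in B10.BR and 402 to 487 at 0 cGy, 776 to 901 at 300 cGy, 925 to 1100 at 400 cGy and 998 to 1100 at 800 cGy in BALB.K. All 14 were well above background on all arrays of every group.

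All 8 B cell markers fell at each of the 6 doses. Their sum was 237 to 265 at 0 cGy, 115 to 133 at 300 cGy, 65.8 to 83.2 at 500 cGy and 41.5 to 45.7 at 900 cGy in B10.BR and 202 to 209 at 0 cGy, 106 to 129 at 300 cGy, 63.3 to 83.3 at 400 cGy and 28.8 to 29.9 at 800 cGy in BALB.K. Of 8 T cell markers 7 fell and none rose at each strain's highest dose. Of 9 erythroid markers 8 fell at 900 cGy in B10.BR and 9 at 800 cGy in BALB.K, and their sum was 147 to 194 at 0 cGy, 11.7 to 26.6 at 300 cGy, 10.7 to 16.5 at 500 cGy and 10.2 to 13.1 at 900 cGy in B10.BR and 444 to 557 at 0 cGy, 35.9 to 66.6 at 300 cGy, 44.9 to 50.9 at 400 cGy and 41.4 to 45.1 at 800 cGy in BALB.K. In B10.BR 8 of the 9 erythroid markers were well above background on all arrays at 300 cGy, 7 at 500 cGy and 5 at 900 cGy. The erythroid falls and sums there rest partly on dim signals. The share of the rise of the 10 genes that goes with the loss of these other cells was not tested.

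Of the 6 monocyte markers measured 2 rose and 2 fell at 300 cGy, 1 rose and 2 fell at 500 cGy, and 1 rose and 3 fell at 900 cGy in B10.BR, with a sum of 123 to 151 at 0 cGy, 133 to 136 at 300 cGy, 122 to 134 at 500 cGy and 90.1 to 104 at 900 cGy. In BALB.K 2 rose and 1 fell at 300 and at 400 cGy, and 4 rose and 1 fell at 800 cGy, with a sum of 54.8 to 69.6 at 0 cGy, 67.7 to 89 at 300 cGy, 65.2 to 78.8 at 400 cGy and 72.8 to 80.1 at 800 cGy, so that the BALB.K arrays at 800 cGy lay above those at 0 cGy.

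Of 9 neutrophil markers 7 rose and none fell at 300 cGy in B10.BR, where S100a8 changed by 1.03, Ngp by 1.45 and Ltf by 1.55. At 500 cGy 4 rose and none fell, and at 900 cGy 2 rose and 2 fell, with a sum of 245 to 269 at 0 cGy, 324 to 490 at 300 cGy, 286 to 352 at 500 cGy and 207 to 281 at 900 cGy. The B10.BR arrays at 300 and 500 cGy thus lay above those at 0 cGy. In BALB.K 3 rose at 300 cGy, 1 at 400 cGy and 2 at 800 cGy, none fell, and the sum was 200 to 265 at 0 cGy, 259 to 384 at 300 cGy, 195 to 286 at 400 cGy and 228 to 323 at 800 cGy. The part of these cells in the changes of the 10 genes was not tested.

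Of 8 dendritic cell markers 1 rose and 5 fell at each dose in B10.BR, with a sum of 162 to 192 at 0 cGy, 198 to 236 at 300 cGy, 228 to 259 at 500 cGy and 201 to 241 at 900 cGy. In BALB.K 2 rose at each dose, while none fell at 300 cGy, 3 at 400 cGy and 4 at 800 cGy, with a sum of 132 to 148 at 0 cGy, 160 to 204 at 300 cGy, 169 to 186 at 400 cGy and 193 to 198 at 800 cGy. The sum was higher at every dose than at 0 cGy in both strains, although more of the markers fell than rose at each dose except 300 cGy in BALB.K. In B10.BR the gene that rose was Bst2, by 1.59 at 300, 1.97 at 500 and 1.70 at 900 cGy. Xcr1, Clec9a, Flt3, Siglech and Cd209a fell there at each dose. In BALB.K the genes that rose were Bst2 and Clec10a. The higher sum is thus not shared by most of the markers.

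**Figure D4:**
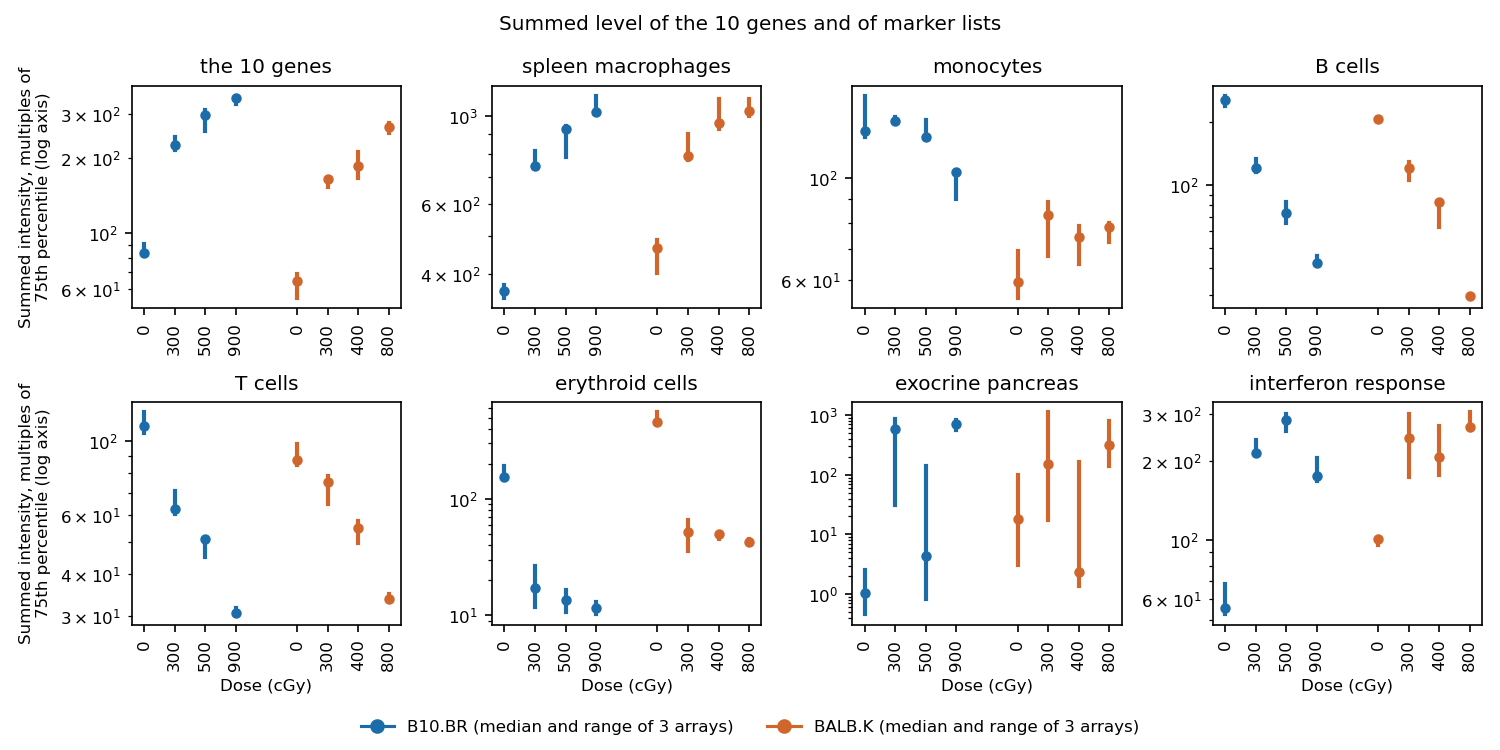
Summed intensity of the genes of each list, in multiples of the array's 75th percentile on a log axis, against dose in cGy, with B10.BR (blue) left of BALB.K (orange). Points are medians and bars span the 3 arrays. The 10 genes and the macrophage markers are higher in irradiated groups than at 0 cGy, and the B cell, T cell and erythroid markers are lower.

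Genes of the exocrine pancreas, which lies against the spleen, varied strongly between arrays. All 11 listed rose at 300 and at 900 cGy in B10.BR, and none passed at the other 4 doses. Their sum was 0.456 to 2.49 at 0 cGy, 31.4 to 865 at 300 cGy, 0.828 to 142 at 500 cGy and 560 to 821 at 900 cGy in B10.BR and 3.08 to 97.8 at 0 cGy, 17.5 to 1120 at 300 cGy, 1.38 to 163 at 400 cGy and 143 to 799 at 800 cGy in BALB.K. With the mean level of these genes as a term of the fit, all 10 genes rose at each of the 6 doses, and the Siglec1 changes in B10.BR were larger, 2.44 at 300 cGy and 3.74 at 900 cGy.

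Interferon-response genes rose with them. Of 10 listed 9 rose at each of the 6 doses. Their sum was 52.3 to 67.9 at 0 cGy, 212 to 239 at 300 cGy, 259 to 300 at 500 cGy and 167 to 205 at 900 cGy in B10.BR and 95.8 to 103 at 0 cGy, 174 to 299 at 300 cGy, 177 to 270 at 400 cGy and 261 to 305 at 800 cGy in BALB.K, so that in B10.BR the arrays at 900 cGy lay below those at 500 cGy. Ifi44 and Irf7, of which Irf7 is a factor that drives interferon genes, rose by 3.41 ± 0.15 and 3.28 ± 0.23 at 900 cGy in B10.BR, and the antiviral genes Ifit3 and Oas2 by 3.92 ± 0.19 and 3.84 ± 0.21 at 800 cGy in BALB.K. The exceptional gene in BALB.K was Rsad2, an antiviral enzyme, which changed by -0.90 ± 0.21 at 800 cGy.

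Across the 24 arrays the log2 levels of the 10 genes had a Pearson r above 0 in all 45 pairs, with a median of 0.859 and a range of 0.0886 to 0.982. The arrays fall into the 8 groups, which differ in dose and strain. After the mean of each group was taken away, the median was 0.351 and the range -0.446 to 0.856, with 39 of 45 pairs above 0. The highest within-group value was between C1qa and C1qc (0.856). The pairs of Siglec1 with Cd5l, C1qc and Adgre1 had the lowest values over all arrays (0.0886, 0.257 and 0.241).

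Outside the 10, the genes whose log2 level followed the mean of C1qa, C1qb and C1qc most closely over the 24 arrays were Grn (r = 0.992), Mmp2 (0.991), Dhrs1 (0.988), Folr2 (0.986), Pcdhga9 (0.985), C1qtnf5 (0.984), Itgb5 (0.984) and Nicn1 (0.984). Grn encodes the lysosomal protein progranulin, and Folr2 is a folate receptor found on tissue macrophages. For Siglec1 the nearest were Lpl (0.983), LOC547349 (0.982) and Ccl24 (0.98), and for Cd5l they were Sct (0.979), Nr1h3 (0.975), which encodes the lipid sensor LXR alpha, and Slc7a8 (0.973).

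The nearest to Cd163 were Lamb2 (0.96), Adamtsl2 (0.958) and Lims2 (0.957), and to Vsig4 Enpp1 (0.955), Tmem255a (0.955) and Trpv4 (0.949). Mertk lay nearest to Zfp503 (0.985), Plxnb3 (0.981) and Rab42 (0.981), Axl to Rarres2 (0.987), Cmbl (0.986) and Slc16a9 (0.985), and Adgre1 to Bace2 (0.978), Cd300c2 (0.972) and Fam174b (0.971). These values describe a likeness over arrays that share dose and strain and carry no test.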

How the data were processed

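Per the file headers and the submitters' processing notes, the scanner files hold intensity values extracted by the authors with Agilent Feature Extraction 10.5.1.1, whose processed signal is background-corrected on each array, with probe positions on build mm9. The deposited matrix holds log2 values made by the authors. The sources used here do not give their normalization. Its column medians ran from -0.12 to 0.18, all BALB.K probes had a median of 0 over their columns, and the baseline of the B10.BR columns remains unknown, so that it served only within a strain, as an alternative. Per the labels, RNA was isolated with TRIzol and RNeasy columns from splenocytes, each sample pooling 3 mice, and labelled with Cy3.

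Each log2 processed signal was set relative to the 75th percentile of the non-control probes on its array, without outlier spots and with repeat spots averaged. Probes were kept if more than a fraction of 0.5 of their spots were well above background on all 3 arrays of at least 1 group (42316 of 55681). Through RefSeq (GRCm38.p6), 26413 probes were named from their accession, 3859 from their symbol and 735 from a synonym, while 24674 stayed as listed. A gene was represented by its brightest probe on average. Other probes of the 10 genes were taken from a fit over all probes. A group-means model over all 24 arrays was fitted with limma 3.58.1 in R 4.3.3 (files read with the data.table package, version 1.17.8), with empirical Bayes moderation, two-sided, and Benjamini-Hochberg adjustment per comparison over 29530 features at 0.05. There were 13 comparisons. Figures were drawn with matplotlib 3.10.9 in Python 3.11.15. The number of arrays limits the precision, and p-values measure the spread between pools of mice.

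The 10 genes and the lists beside them were chosen with earlier results of these data known. All 10 genes are named in every comparison, up to 2 called rises and 2 called falls of each pathway list are named from the highest doses (1 such gene is not reported here), and the genes of most similar level are the 8 nearest to the C1q mean and the 3 nearest to each other gene by Pearson r. Promoters are RefSeq windows of 250 bases on GRCm38.p6.

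Tested on data simulated after the comparison of 300 with 0 cGy in BALB.K, over 29530 features, the fit recovered 69 of 100 genes changed by 1 on the log2 scale and 94 of 100 changed by 2, and 5.23% of the calls were of unchanged genes. All other features were simulated without change, whereas 13787 features were called in the measured comparison. The adjusted threshold depends on how many features change. These rates therefore check that the fit runs as meant and do not carry over to the measured data. For B10.BR at 900 against 500 cGy, and for no other comparison, the deviations of same-numbered samples from their group means all correlated above 0.1 (0.205, 0.121 and 0.239). The values given for that comparison still come from the unpaired fit. The replicate number as a block was an alternative for every comparison. The labels do not say what a number marks. The alternatives were 3 other scalings (quantile, median, spike-in), normexp correction (offset 50), 2 other filters, outlier spots kept, gene means over probes or each probe by itself, only the arrays compared, an intensity trend, slide, replicate number, pancreas genes or Y-linked signal in the fit, the deposited matrix, and each array left out.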

Additional observations from a re-analysis of the deposited data

Results flagged for a closer look

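By its brighter probe, the response of Siglec1 differed between the strains at their highest doses. At 300 cGy, the dose that both strains received, the difference was 0.61 and did not pass. The change at 900 cGy in B10.BR exceeded the change at 800 cGy in BALB.K by 1.14 on the log2 scale (limma adjusted p = 0.014), where the changes themselves were 3.04 ± 0.20 in B10.BR and 1.90 ± 0.20 in BALB.K. The doses are not equal, and the B10.BR arrays started 3.03 lower on the log2 scale, or 2.34 lower with the mean of the gene's probes. In 25 of 27 alternatives the difference at the highest doses kept its call, with values from 0.76 to 2.01 over all 27. All alternatives but the mean of probes rested on the brighter probe alone. The call was lost with spike-in scaling (adjusted p = 0.189) and with the mean of the gene's probes (adjusted p = 0.0834). By the gene's second probe the difference was 0.69 (adjusted p = 0.375).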

How the results depend on the processing

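Over the other settings and the arrays left out in turn, 1344 of 1350 values of the 60 changes at a dose against 0 kept their direction and call, and 6 kept the direction only. Those 6 are given with Cd163, Vsig4 and Siglec1 in BALB.K at 300 and 400 cGy and in B10.BR at 300 cGy, and leaving out 1 array gave 9 to 10 genes risen at 300 cGy in each strain and 10 at the other doses. For Siglec1 all settings but the mean of probes used the brighter probe, and the setting with each probe by itself counted that same probe. The gene's second probe, which is not in these counts, did not pass at 300 cGy in BALB.K (0.43, limma adjusted p = 0.312). Some settings could not move a change. Y-linked signal as a term could do so only at the highest BALB.K dose, and slide could not at 300 cGy in B10.BR. Changes kept there are no check. The causes of the shifts below were not tested.

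For the successive doses few genes passed. At 400 against 300 cGy in BALB.K 1 rose, against 2 with quantile normalization, normexp correction, slide as a term or within slide 3, and 0 with median scaling, spike-in scaling, only the arrays compared, the deposited matrix or the pancreas genes as a term. There 0 fell, and 1 with median scaling (Adgre1, -0.32). Leaving out 1 array gave 0 to 2. At 800 against 400 cGy 5 rose, and 4 to 5 without 1 array. In B10.BR at 500 against 300 cGy 0 rose, against 1 with normexp correction or the intensity trend, 3 with slide, 2 with Y-linked signal and 0 to 2 without 1 array. At 900 against 500 cGy 1 rose, against 4 with quantile normalization, 3 with slide or pancreas genes, 2 with Y-linked signal, 0 with spike-in scaling, only the arrays compared, the deposited matrix or within slide 2, and 0 to 2 without 1 array.

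Between unirradiated strains 5 rose and 2 fell, against 8 and 1 with median scaling, 1 and 4 with spike-in scaling and 1 and 1 with slide, and 5 to 6 and 2 without 1 array. With spike-in scaling C1qa (-0.68), Mertk (-0.72) and Adgre1 (-0.22) turned sign while the median of all features moved to -0.82. Their differences relative to that median stayed at 0.14, 0.10 and 0.60, as they must where all genes of an array shift alike. In the strain difference at 300 cGy 0 rose, against 1 with slide, pancreas genes or Y-linked signal (Siglec1 each time). At the highest doses 1 rose, against 0 with spike-in scaling or the mean of probes, and 0 fell, against 1 with Y-linked signal (Cd5l, -0.71).

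The numbers of all features called moved too. At 300 cGy against 0, 13787 in BALB.K became 9102 with spike-in scaling, 8128 with only the arrays compared and 7038 within slide 2, and 12279 in B10.BR became 7706 with spike-in scaling. The 1380 at 400 against 300 cGy in BALB.K became 2 to 5164, the 5482 at 800 against 400 cGy 3173 at the least, the 467 at 500 against 300 cGy in B10.BR 0 to 944, and the 1347 at 900 against 500 cGy 0 within slide 2. The 15751 between the unirradiated strains became 5722 with slide, the 3193 in the difference at 300 cGy 864 to 5041, and the 3755 in that at the highest doses 404 with slide.

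With the replicate number as a block, no call of the 10 genes changed in any comparison. In B10.BR at 900 against 500 cGy, where same-numbered samples deviated alike, Adgre1 remained at 0.46 with the block in the limma fit (adjusted p = 0.0106). The block moved the features called beyond 1.5 times only at 500 against 300 cGy in B10.BR, 765 against 467.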

Other observations

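The BALB.K arrays differed in Y-linked signal, with Ddx3y well above background on 1 of 3 arrays at 0, 300 and 400 cGy and on all 3 at 800 cGy, while all 12 B10.BR arrays had it. This was noticed after the values were seen. In each of the BALB.K groups at 0, 300 and 400 cGy the array with this signal was below both others for Siglec1, Cd5l, Vsig4 and Axl, and above both for Cd163. For the rest of the set its place differed between these groups. How many of all features behaved like the genes named is not given here. The pattern is therefore a description only and cannot be taken as a trait of these genes. For Siglec1 the array with the signal read 2.09, 4.47 and 5.05 times the 75th percentile at those doses, against 2.79 to 3.07, 6.9 to 7.49 and 7.17 to 7.54 for the arrays without it. For Cd163 it read 0.0417, 0.156 and 0.266, against 0.0324 to 0.0338, 0.0584 to 0.0795 and 0.128 to 0.163. The array with the signal is replicate 1 in each of these groups, so that the signal and whatever else set that replicate apart cannot be told apart. With the signal as a term of the fit, Siglec1 rose at 800 against 400 cGy in BALB.K by 0.97 (adjusted p = 0.000749), against 0.59 without the term, and the B10.BR minus BALB.K difference in the Cd5l change at the highest doses was -0.71 (adjusted p = 0.0124), against -0.36 without it.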
